A study of Mus musculus with 1183 samples.

Results

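Mast cells were examined in single-cell RNA sequencing of the distal lung of newborn mice, sorted mainly for immune cells. The 59 cells whose subtype label read mast cell were taken, out of 1183 cells in the series; a further subtype labelled mast cell II, with 22 cells, was kept apart. All cells came from 2 mice at postnatal day 7 exposed to hyperoxia, 1 female (598 cells, 39 of them mast cells) and 1 male (585 cells, 20 of them mast cells). Cells were sorted into plates by flow cytometry, and a plate-based protocol that uses Tn5 transposase gave 1 library per cell, with reads counted per gene and no molecular identifiers. Every group compared here shares the hyperoxia treatment, the age and the 2 animals; cells of mice kept in room air are not analysed here, so nothing below measures an effect of oxygen. The strain, the genotype and the oxygen level are not given in the sources used here. How the subtype labels were assigned is not given either, and if they rest on expression in these cells, the differences between subtypes describe the classes and are not independent evidence for them.

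Mast cells are long-lived tissue cells of the blood lineage that depend on the receptor Kit and settle near vessels, airways and nerves. Their granules hold proteases (tryptases, chymases and carboxypeptidase A) packed with histamine on the proteoglycan serglycin, and are released when IgE bound to its high-affinity receptor is cross-linked. In lung they are known for their part in allergic inflammation. Basophils share the IgE receptor and histamine with mast cells but circulate in blood.

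Of the mast cells, 16 came from the first and 21 from the second plate of sorted CD45 cells of the female, 9 and 11 from those of the male, and 2 from a female plate labelled for mesenchymal cells, on which 3 cells in all were used. The first female CD45 plate was sequenced in a run of its own, so its plate and run cannot be told apart. With 1 animal per sex, neither can animal and sex. Total reads per mast cell ran from 185942 to 7560179 with a median of 1164290, and no 2 cells of the series held identical counts. After each cell was thinned to 100000 reads, a median of 2964 genes was detected in female and 2785 in male mast cells. Basophils had medians of 1921 and 1942 genes and mast cell II of 4751 and 3966.5.

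The label was checked against 5 defining markers. Cma1 and Cpa3 reached 10 CPM (CPM are counts scaled to the same total in every library) in 59 of 59 mast cells, Tpsb2 and Kit in 58 and Mcpt4 in 49. Outside mast cells, Tpsb2 reached 10 CPM in 1 of 390 cells labelled Mac III, at 4836 CPM beside 5951 CPM of Cma1, and in no cell of another subtype; Mcpt4 reached it in none. The other 3 markers were less particular: Kit reached 10 CPM in 22 of 22 mast cell II cells, 11 of 14 IL cells and 15 of 40 DC I cells, Cpa3 in 41 of 53 basophils and 4 of 22 mast cell II cells, and Cma1 in 2 mast cell II cells and 1 NK cell. Markers of neutrophils, macrophages, dendritic cells, platelets and mesenchymal cells summed to at most 0.798 CPM in the mast cells of each animal, and the 4 platelet markers had no read. B cell markers summed to 137.4 CPM in female mast cells and 47.8 CPM in male ones, and endothelial markers to 30.4 and 16.2 CPM. The 4 basophil markers (Mcpt8, Prss34, Cd200r3 and Il3ra) summed to 1725 and 2108 CPM, all 59 mast cells held at least 50 CPM of them, and the highest held 13758 CPM; their part in the results was not tested.

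A pair of female cells stood apart from the other 57. The first carried 5671 CPM of B cell markers, against 716 CPM in the next highest mast cell, together with 2777 CPM of Cd74 and 480 CPM of H2-Aa. The second had no read of Tpsb2 or Tpsab1 and held 2320 CPM of Cma1, the lowest of all mast cells, with 17542 CPM of Gzmb (granzyme B), 3154 CPM of Mcpt2 and 1881 CPM of the proliferation gene Mki67. Each comparison, the protease share and the difference between the animals were repeated without both cells.

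The proteases that mark these cells were looked up in the RefSeq promoter table for the mouse build GRCm38.p6, which gave entries for 3 of the 5 genes searched. The 250 bases before the start of Cma1 (chr14:55944676-55944925, minus strand), Mcpt4 (chr14:56062311-56062560, minus strand) and Cpa3 (chr3:20242182-20242431, minus strand) are shown because these genes were among those highest in mast cells relative to every other subtype. Capitals mark the letters AGATAA, or the same ending in G, AGATAG, or the same pair starting with T, TGATAA as well as TGATAG, on either strand, the core that GATA factors are known to bind; Gata2, which mast cells need, is described further on. Each window held 1 match.
Cma1: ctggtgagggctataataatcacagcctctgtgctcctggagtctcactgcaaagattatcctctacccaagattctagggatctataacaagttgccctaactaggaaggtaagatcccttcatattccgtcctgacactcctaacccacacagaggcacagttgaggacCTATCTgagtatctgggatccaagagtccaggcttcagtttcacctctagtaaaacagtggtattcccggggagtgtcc
Mcpt4: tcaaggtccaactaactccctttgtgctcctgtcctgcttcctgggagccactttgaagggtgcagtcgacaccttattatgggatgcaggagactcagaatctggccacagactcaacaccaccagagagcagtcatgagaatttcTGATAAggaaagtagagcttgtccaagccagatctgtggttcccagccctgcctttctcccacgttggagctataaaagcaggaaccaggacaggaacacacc
Cpa3: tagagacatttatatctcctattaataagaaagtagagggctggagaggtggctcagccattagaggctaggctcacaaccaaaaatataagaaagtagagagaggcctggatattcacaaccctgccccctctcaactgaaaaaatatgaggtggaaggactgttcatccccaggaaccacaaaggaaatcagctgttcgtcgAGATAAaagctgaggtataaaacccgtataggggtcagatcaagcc
In Cma1 the match was AGATAG read on the other strand, ending 74 bases before the start. In Mcpt4 it was TGATAA, ending 98 bases before the start, and in Cpa3 AGATAA, ending 41 bases before it, both on the printed strand. Among all 32851 promoter windows of this length in the table, 8718 (26.5%) held at least 1 of these letters, and the window of Kit held none. A match in a window is a description of its letters and shows no binding.

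Transcripts of granule proteases took up a large part of each mast cell library. The 12 listed protease genes measured here held 21.5% of the summed reads of the female mast cells and 22.01% of the male ones (mean 21.7% ± 0.376, SD, n = 2 animals). In single cells the share ran from 3.36% to 30.99% with a median of 21.4%. The share was 0.916% in female and 1.92% in male basophils, 0.0558% and 0.0323% in mast cell II, and at most 0.0581% in every other subtype.

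Cma1, a chymase, and Tpsb2, a tryptase, were the protease genes with the highest read counts. Cma1 ran from 2320 to 124283 CPM in female cells, with a median of 76099, and from 14199 to 144458 CPM in male cells, with a median of 79669. Tpsb2 ran from 0 to 117027 CPM in female cells (median 74587) and from 10026 to 131011 CPM in male cells (median 89724). Apart from the cell without Tpsb2 reads, all cells held at least 10026 CPM of it, and the 2 animals overlapped over most of their range.

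Cpa3, the mast cell carboxypeptidase, ran from 5022 to 60567 CPM in the female (median 27526) and from 6084 to 30736 CPM in the male (median 17978). Kit, the receptor for stem cell factor, ran from 272.8 to 2860 CPM in the female (median 1444) and from 9.90 to 2403 CPM in the male (median 667). For both genes the female median was the higher one, while the cells of the animals overlapped. Mcpt4, a connective tissue type chymase, differed from cell to cell: it had no read in 10 cells, 10 to 1000 CPM in 4 and at least 1059 CPM in the other 45, up to 55297 CPM among female and 44677 CPM among male cells.

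The other listed proteases were found in fewer cells or at lower counts. Tpsab1, a second tryptase, reached 10 CPM in 56 cells and Cma2, a chymase-like gene, in 48. Prss34, a serine protease best known from basophils, did so in 19 cells, Ctsg (cathepsin G) in 23, Mcpt2 and Gzmb in 7 each, and Mcpt8, a basophil protease, in 3. The female cell without Tpsb2 or Tpsab1 reads held 79.2% of all Mcpt2 reads and 50.4% of the Gzmb reads, and a male cell 65.9% of the Mcpt8 reads. Reads of near-identical family members cannot be separated without knowing how the authors treated reads that fit several genes, so the split among tryptases and among chymases is uncertain.

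**Figure D1:**
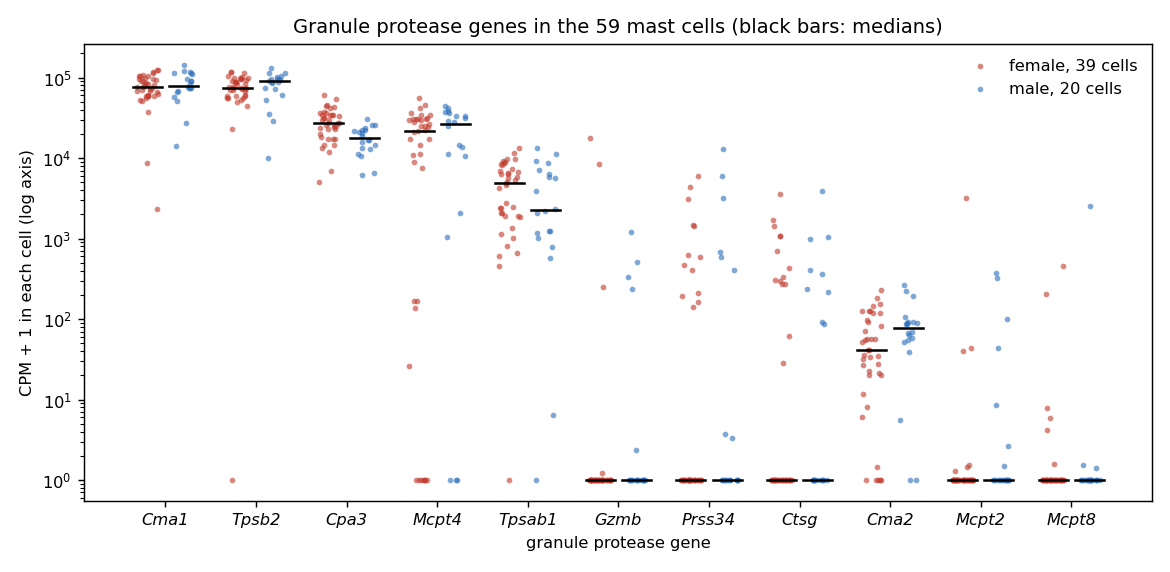
CPM plus 1 on a log axis of 11 granule protease genes in each of the 59 mast cells; each point is 1 cell, red for the female and blue for the male, and black bars are medians. Cma1, Tpsb2 and Cpa3 are high in nearly every cell, while Mcpt4 shows 10 cells with no read.

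Mast cells were next compared with all other subtypes, by summing counts over the cells of each subtype in each animal: 2 mast cell libraries against 28 libraries of 14 other subtypes. The 28 libraries came from the same 2 animals and were fitted as 1 group. The spread behind the p-values of this comparison thus includes differences between subtypes and is not a spread between replicate animals alone. A further subtype, Mac I, was labelled on 1 cell and was left out. edgeR's quasi-likelihood test with Benjamini-Hochberg adjustment called 0.846% of the 15600 genes tested higher in mast cells and 0.0385%, 6 genes, lower, at an adjusted p under 0.05. DESeq2 called 1.49% higher and 6.65% lower and limma voom 4.57% higher and 0.571% lower, so the balance of higher and lower calls depended on the tool. In all 0.885% passed; when the female mast cell library was left out 84 genes were called and for the male one 61, with the single library left assumed to vary as the others do. The median log2 fold change over all genes was -0.56 with edgeR, -0.42 with DESeq2 and 0.01 with voom.

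The granule proteases stood out in this comparison: 8 of the 12 tested were called higher, and their median log2 fold change was 10.02. The SE printed with a fold change is derived from edgeR's F statistic. Mcpt4 had 18237 CPM in the summed female and 22410 CPM in the summed male mast cells, against at most 0.0639 CPM in any other subtype, a log2 fold change of 20.72 ± 0.77 (SE; adjusted p = 2.01e-19). Tpsb2 had 80013 and 85680 CPM, with 43.9 CPM in male Mac III as the highest other level (log2 fold change 15.82 ± 2.01, adjusted p = 3.51e-06). Cma1 had 80934 and 86808 CPM, and the highest other level was 54.6 CPM in male mast cell II (14.44 ± 2.07, adjusted p = 2.81e-05). Tpsab1, Cma2, Mcpt2 and Mcpt9 were also called, Mcpt9 on 77 reads in all and not with DESeq2. Of the Mcpt2 reads in mast cells, 79.2% came from the female cell without Tpsb2 or Tpsab1 reads. Without the 2 cells that stood apart, 8 proteases were still called.

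Cpa3 was the least secure of the 8. It had 29021 and 19032 CPM in female and male mast cells, and 744 and 495 CPM in basophils, the next highest subtype. Its log2 fold change was 8.73 ± 2.17 (adjusted p = 0.0392), and the call was lost without the female mast cell library (adjusted p = 0.199) and without the male one (adjusted p = 0.128). Among the 53 basophils, 41 reached 10 CPM of Cpa3. The 4 proteases that were not called, Ctsg, Prss34, Mcpt8 and Gzmb, all had reads in basophils, mast cell II or NK cells.

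Beyond the proteases, genes were ranked by how far the mast cell level lay above the highest of the 14 other subtypes in each animal. Of 1058 genes with at least 100 CPM in the mast cells of both animals, 24 lay at least 4-fold above every other subtype in both. The first 15 included 5 proteases and 10 other genes, and all 15 were called higher by edgeR. Because this ranking uses the same levels as the test, the calls describe the ranked genes and add no independent support.

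Rgs13, a regulator of G protein signalling, had 414 CPM in female and 174.96 CPM in male mast cells and at most 0.0309 CPM elsewhere (log2 fold change 15.47 ± 0.78, adjusted p = 1.17e-15). Rprm, a gene linked to arrest of the cell cycle, had 623 and 599 CPM and at most 0.712 CPM elsewhere. Maob, monoamine oxidase B, which breaks down amines, had 876 and 538 CPM and at most 1.11 CPM elsewhere. These 3 genes reached 10 CPM in 45, 56 and 54 of the 59 cells, and their calls held without either mast cell library.

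Ednra, the endothelin A receptor, had 403.8 and 147.6 CPM with at most 1.86 CPM elsewhere. Atp8b5, a lipid flippase, had 731 and 498 CPM with at most 9.30 CPM elsewhere, and Stard13 had 205.97 and 148.5 CPM with at most 3.15 CPM elsewhere. Adora3, the adenosine A3 receptor, had 593 and 444 CPM and was next highest in basophils, at 19.4 and 38.6 CPM (6.56 ± 1.41, adjusted p = 0.00942). The Adora3 call was lost without the female mast cell library (adjusted p = 0.138) or the male one (adjusted p = 0.0754). Slc45a3 (949 and 395 CPM), Fam198b (225.1 and 123.9 CPM) and Poln (365.02 and 180.3 CPM) completed the 15. Poln, a DNA polymerase, lost its call without the female (adjusted p = 0.257) or the male library (adjusted p = 0.0703), and Fam198b without the female one (adjusted p = 0.122).

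**Figure D2:**
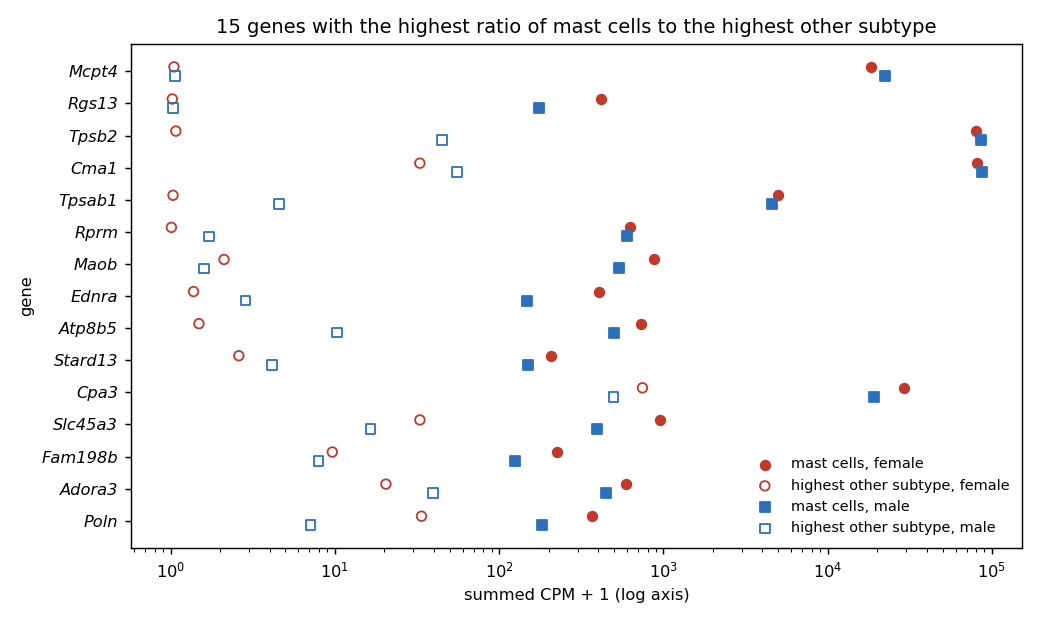
Summed CPM plus 1, on a log axis, of the 15 genes with the highest ratio of mast cells to the highest other subtype. Filled symbols are mast cells and open symbols the highest of 14 other subtypes, circles for the female and squares for the male; for all 15 genes both filled symbols lie to the right of both open ones.

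Genes for the packing of granules and for mediators gave few calls with edgeR. Of 17 genes of proteoglycan and heparin synthesis, edgeR called 1, DESeq2 2 and voom 8, all higher. The edgeR call was Ndst2, a sulfotransferase needed for heparin, at 611 and 432 CPM against at most 92.1 CPM elsewhere (log2 fold change 4.796 ± 0.87, adjusted p = 0.00107). Its call was lost without the female mast cell library (adjusted p = 0.0674) and held without the male one. Srgn, the core protein serglycin, was also highest in mast cells, at 7170 and 6413 CPM, but basophils followed with 4280 and 5735 CPM and its difference from the other subtypes was not called (2.36 ± 0.84, adjusted p = 0.394). The list median was 1.39.

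Of 16 genes of amine and lipid mediators, Maob was the only one called against the other subtypes with edgeR, while DESeq2 called 4 higher and 2 lower. Hdc, which makes histamine, stood at 6046 and 6607 CPM in mast cells and higher in basophils, at 7995 and 11133 CPM. Tph1, which makes the precursor of serotonin, had 854 and 477 CPM in mast cells, 0.102 CPM or less in basophils and 212.6 CPM in male IL cells (adjusted p = 0.130, and 0.00899 with the animal as a block). Slc6a4, the serotonin transporter, had 699 and 402 CPM, Slc18a2, which loads amines into granules, 470 and 420 CPM, and Ddc 85.4 and 123.4 CPM, each highest in mast cells in both animals. For Ddc the adjusted p was 0.222, and 0.0130 with the animal as a block. voom called Tph1 and Ddc (adjusted p = 1.29e-17 and 2.07e-09), and DESeq2 called Tph1 (0.000444) but not Ddc (0.0857). Ptgs2, the inducible cyclooxygenase, had no read in any mast cell, against 409 and 380 CPM in basophils.

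Of 16 genes of the IgE receptor and Kit signalling, none was called by edgeR against the other subtypes; 3 had an unadjusted p under 0.05, DESeq2 called 4 and voom 8, all higher in mast cells. Kit had 1388 CPM in female and 786 CPM in male mast cells, followed by mast cell II with 274.8 and 284.5 CPM (log2 fold change 5.26 ± 1.78, adjusted p = 0.311). Fcer1a, the chain of the receptor that binds IgE, had 591.6 and 211.3 CPM in mast cells and 829 and 1291 CPM in basophils. Its partner chain Ms4a2 had 311.6 and 196.9 CPM against 800.5 and 459 CPM. Fcer1g, the shared signalling chain, had 2451 and 3205 CPM and was higher in Mac V, at 3391 and 3968 CPM. The IgE receptor chains were thus high in mast cells without being highest there.

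Of 21 other surface receptors tested, Adora3 alone was called by edgeR, while DESeq2 called 2 higher and 4 lower and voom 7 higher. Il1rl1, the receptor for interleukin 33, had 779 and 865.5 CPM and was highest in mast cells in both animals, ahead of basophils (263.99 and 86.6 CPM) and male IL cells (253.6 CPM), but was not called (adjusted p = 0.677). Of 20 transcription factors, none was called by edgeR, 3 had an unadjusted p under 0.05 (Mitf, Meis2 and Hes1, all higher), DESeq2 called 1 higher and 2 lower and voom 8 higher. Gata2, needed for mast cells and basophils, had 2074 and 1878 CPM in mast cells and 2942 and 3049 CPM in basophils. Mitf, a regulator of Kit and of granule genes, had 162.5 and 232.1 CPM and was highest in mast cells, followed by Mac II with 41.2 and 72.2 CPM.

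Of 17 exocytosis genes edgeR called 1, DESeq2 1 and voom 2, all higher. The edgeR call was Rab27b, a small GTPase of granule docking, at 742.5 and 448 CPM against at most 126.8 CPM elsewhere (6.46 ± 1.51, adjusted p = 0.0229). Of 25 genes of adhesion and matrix edgeR called 1 higher, DESeq2 1 higher and 3 lower, and voom 5 higher. Here the edgeR call was Serpinb1a, an inhibitor of neutrophil serine proteases, at 7146 and 6253 CPM against at most 675 CPM (5.31 ± 1.17, adjusted p = 0.0118). Both calls were lost without the female mast cell library (adjusted p = 0.291 for Rab27b and 0.150 for Serpinb1a) and without the male one (0.108 and 0.114). Both were also lost in the sequencing run that held plates of both animals (0.0776 and 0.0573).

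None of 26 cytokines and growth factors was called by edgeR against the other subtypes, where 5 had an unadjusted p under 0.05, DESeq2 called 5 and voom 8. Il4 had 487.5 and 703 CPM in mast cells and 490.0 and 979.5 CPM in basophils, and reached 10 CPM in 56 of 59 mast cells. Tnf had 390.5 and 292.8 CPM and Il13 55.8 and 141.4 CPM, both highest in mast cells in the 2 animals. Ccl2, a chemokine for monocytes, had 1452 and 1780 CPM, with Mac IV as the highest other subtype at 1187 and 3986 CPM. Vegfa and Areg, growth factors of vessels and epithelium, were low, at 3.54 and 12.3 CPM and at 0.0647 and 0 CPM.

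None of 27 genes of oxidant handling, 12 of antigen presentation, 15 immediate early and stress genes and 10 cell cycle genes was called by edgeR. At an unadjusted p under 0.05 the counts were 3, 1, 2 and 0. DESeq2 called 4 oxidant genes, 1 antigen presentation gene and 1 immediate early gene lower in mast cells, and voom called 10 immediate early genes higher. The list medians of the log2 fold change were -1.63 for oxidant handling, -5.56 for antigen presentation, 1.15 for immediate early genes and -0.09 for the cell cycle, against -0.56 over all genes. Jun, at 2171 and 2945 CPM, and Egr1, at 1741 and 1574 CPM, were highest in mast cells in both animals and were not called (adjusted p = 0.139 and 0.691).

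**Figure D3:**
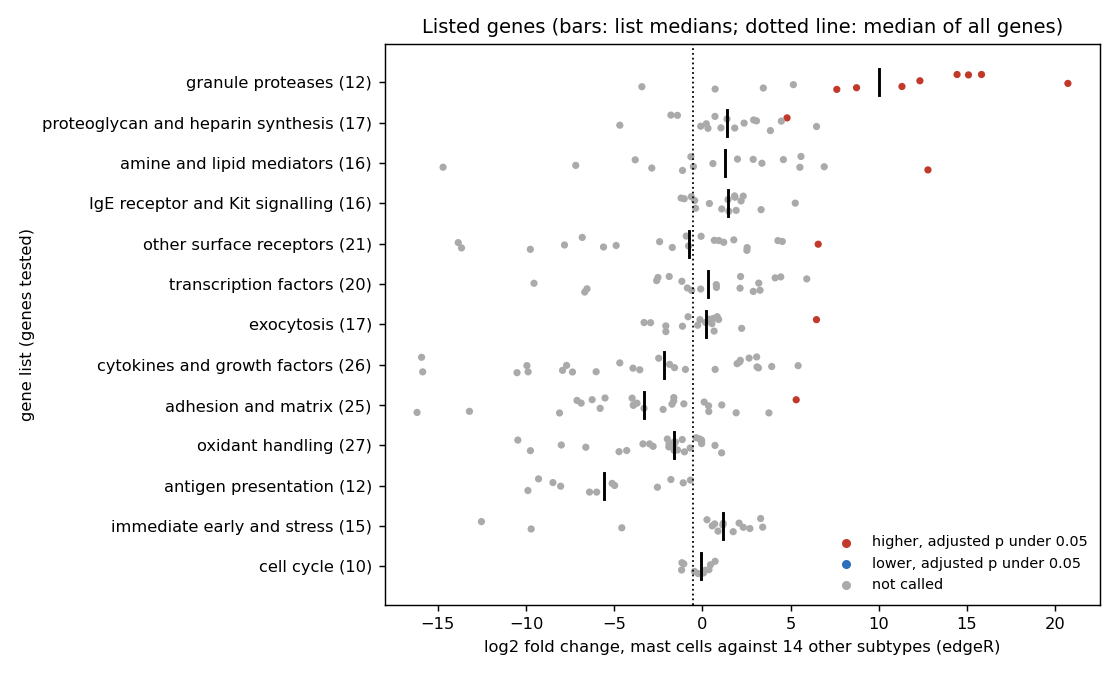
Log2 fold change of mast cells against the 14 other subtypes, from edgeR, for the tested genes of 13 lists (gene numbers in brackets); each point is 1 gene, red where called higher and grey where not called, and no listed gene was called lower. Black bars are list medians and the dotted line is the median of all genes, -0.56; the granule proteases lie farthest to the right.

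Genes lower in mast cells than in the other subtypes were few with edgeR, at 0.0385% of those tested, but not with DESeq2, at 6.65%. Of 451 genes with at least 50 CPM in every other subtype of both animals, 22 were lowest in mast cells in both, by any margin. Btg2, a gene that restrains cell division, had 0.825 CPM in female and 3.63 CPM in male mast cells against at least 189.9 and 155.5 CPM in every other subtype (log2 fold change -8.79 ± 1.68, adjusted p = 0.00222). Lsp1, a leukocyte protein that binds actin, had 17.8 and 0 CPM against at least 267.97 and 282.2 CPM (-7.69 ± 1.91, adjusted p = 0.0392), and 99.8% of its reads came from 1 cell. Anxa2, annexin A2, had 8.61 and 34.98 CPM against at least 249.5 and 292.98 CPM (-5.56 ± 1.31, adjusted p = 0.0240). Flna, filamin A, had 25.9 and 4.61 CPM against at least 159.9 and 114.6 CPM and was not called (adjusted p = 0.0925).

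Only 2 mast cells reached 10 CPM of Btg2, 1 of Lsp1, 4 of Anxa2 and 9 of Flna. voom did not call Btg2, Lsp1 or Anxa2 (adjusted p = 0.928, 0.943 and 0.875), and the sequencing run with plates of both animals did not call Anxa2 (0.0750). Without the female mast cell library the calls of Btg2 and Anxa2 were lost (adjusted p = 0.167 and 0.667), and without the male one those of Btg2, Lsp1 and Anxa2 were lost (0.0670, 0.348 and 0.209). The further genes lowest in mast cells by the same ranking were Pim1, Apbb1ip, Actg1, Myl12a, Actr2 and Fam49b, none of them called in this comparison. Actg1, Myl12a and Actr2 encode proteins of the actin cytoskeleton.

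Against mast cell II, 0.647% of the 15600 genes were higher in mast cells and 0.141%, 22 genes, lower with edgeR. DESeq2 called 6.92% higher and 3.69% lower, voom 3.46% and 1.49%, and edgeR fitted to these subtypes alone 3.74% and 1.67%. Leaving out 1 of the 4 libraries gave 44 calls (female mast cells left out), 62 (male mast cells), 52 (female mast cell II) and 33 (male mast cell II), against 0.788% of all genes, in either direction, with all 4. Mast cell II had 14 female and 8 male cells. The median log2 fold change over all genes was 0.13.

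All 22 cells of mast cell II held at least 10 CPM of Kit and none held a read of Tpsb2, Tpsab1 or Mcpt4, the proteases described above as abundant in most mast cells. Of the 12 proteases, 4 were called higher in mast cells: Tpsb2, Tpsab1, Mcpt4 and Prss34. The Tpsab1 call (adjusted p = 0.0184) was lost without the female mast cell library (0.0543), without the female (0.119) or male (0.132) mast cell II library and with DESeq2 (0.119). Prss34 had 644 and 989 CPM in female and male mast cells and no read in mast cell II, at least 8030-fold higher (edgeR adjusted p = 9.69e-05), where 3 reads over the group stand for a count of 0. This and the later at-least folds count reads only. Without molecular identifiers and with few cells they set no minimum for the cells of a subtype. Prss34 was not called with DESeq2 (adjusted p = 0.209) or voom (0.717). Cma1, with 539 reads in 2 mast cell II cells, and Cpa3, with 34.1 and 124.8 CPM there, were not called (adjusted p = 0.0771 and 0.171). The median log2 fold change of the list was 13.17, or 10.23 with the genes without reads on 1 side set at their bounds.

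Several mediator genes were also higher in mast cells than in mast cell II. Srgn had 7170 and 6413 CPM against 1088 and 1311 CPM (log2 fold change 3.25 ± 0.33, adjusted p = 2.32e-05), and was called without each of the 4 libraries but not with voom (adjusted p = 0.0785). Hdc had 6046 and 6607 CPM against 10.2 and 48.2 CPM (8.45 ± 1.58, adjusted p = 0.0122), and was not called without the female (0.143) or male (0.0904) mast cell II library. Tph1 and Slc6a4 had no read in mast cell II and were at least 7897-fold and 6497-fold higher in mast cells (adjusted p = 0.0122 and 0.0316). The Tph1 call was lost without the female mast cell library (0.0672) or either mast cell II library (0.129 and 0.132), and the Slc6a4 call without any 1 of the 4 (0.0651 to 0.261). Maob, with no read in mast cell II, was not called (adjusted p = 0.0625), but was with the animal as a block (0.0460) and with voom (8.87e-07). Hdc was not called with voom (0.823) or in the sequencing run with plates of both animals (0.126).

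Of the IgE receptor and Kit list 3 of 16 genes were called, all higher than in mast cell II. Fcer1a had no read in mast cell II and was at least 5076-fold higher (adjusted p = 0.00199), called without each of the 4 libraries but not with DESeq2 (0.257). Fcer1g had 2451 and 3205 CPM against 35.6 and 36.8 CPM (7.04 ± 1.597, adjusted p = 0.0375), and Inpp5d, a phosphatase that restrains the IgE receptor signal, 728.3 and 376.2 CPM against 100.3 and 69.1 CPM (3.48 ± 0.73, adjusted p = 0.0282). The Fcer1g call was lost without any 1 of the 4 libraries (0.0820 to 0.327) and with voom (0.979), and the Inpp5d call without the female mast cell library (0.142) or either mast cell II library (0.159 and 0.280). Kit itself was not called (2.71 ± 2.01, adjusted p = 0.645). Pla2g7, an enzyme that breaks down platelet-activating factor, had 1339 and 884.5 CPM against no read, at least 12831-fold higher (adjusted p = 0.000774), and was called without each of the 4 libraries.

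Ccl2 and Ccl7 had no read in mast cell II. Counted in reads, they were at least 16622-fold and 5403-fold higher in mast cells (edgeR adjusted p = 0.0443 and 0.00475). Ccl7 reached 10 CPM in only 8 of the 59 mast cells, so its absence from 22 mast cell II cells sets a loose limit. The Ccl2 call was lost with the animal as a block (0.0572) and without any 1 of the 4 libraries (0.0918 to 0.3), and the Ccl7 call without either mast cell II library (0.0557 and 0.0600). Ccl7 was also not called with DESeq2 (0.252) or voom (0.671), nor Ccl2 with voom (0.997) or in the sequencing run with plates of both animals (0.0724). A single cell held 48.1% of the Ccl7 reads. Of the immediate early genes, Junb had 2528 and 2093 CPM against 762 and 740.2 CPM (2.38 ± 0.41, adjusted p = 0.00408) and Ier2 3397 and 3992 CPM against 1394 and 1284 CPM (2.22 ± 0.50, adjusted p = 0.0338). The Junb call was lost without the female (0.0757) or male (0.0719) mast cell II library, and the Ier2 call without any 1 of the 4 libraries (0.0941 to 0.264) and with voom (0.249).

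Btg2, nearly absent from mast cells, had 543 and 657 CPM in mast cell II (log2 fold change -7.33 ± 0.77, adjusted p = 2.35e-05) and was called without each of the 4 libraries, but not with voom (0.827). Prdx6, a peroxidase that also acts on lipids, had 114.6 and 46.2 CPM in mast cells and 1217 and 763 CPM in mast cell II (-2.84 ± 0.69, adjusted p = 0.0549). Prdx6 was called with the animal as a block (0.0424), with DESeq2 (0.000176) and with voom (0.000892). Of the other lists, 1 of 21 surface receptors (Adora3, adjusted p = 0.0140) and 1 of 27 oxidant genes (Hmox1, with 1 read in mast cell II, adjusted p = 0.0315) were called by edgeR, both higher in mast cells. The Adora3 call was lost without the female mast cell library (0.0543), without the female (0.143) or male (0.153) mast cell II library and in the sequencing run with plates of both animals (0.0594). The Hmox1 call was lost without any 1 of the 4 libraries (0.0610 to 0.282), with voom (0.997) and in that run (0.0872). No transcription factor, exocytosis, adhesion or antigen presentation gene was called by edgeR, where 4, 3, 5 and 7 had an unadjusted p under 0.05, DESeq2 called 3, 2, 4 and 6, and voom 6, 1, 3 and 0. Of the 7 antigen presentation genes 5 were higher in mast cells and 2 lower. Among the 5, H2-Aa, H2-Eb1 and Ciita had 99.4%, 99.8% and 97.1% of their mast cell reads in 1 cell. For H2-Aa it was the cell with B cell markers. H2-D1 and B2m reached 10 CPM in 58 and 59 mast cells. None of the 10 cell cycle genes was called, and none had an unadjusted p under 0.05 with edgeR or a call with DESeq2 or voom.

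Against basophils, 0.987% of the 15600 genes were higher in mast cells and 0.724% lower with edgeR. DESeq2 called 11.3% higher and 4.65% lower, voom 6.65% and 3.09%, and edgeR fitted to these subtypes alone 1.88% and 2.21%. Of all genes tested 1.71% passed in either direction, against 0.878% when the female mast cell library was left out, 0.744% for the male one, 1.16% for the female basophil library and 0.647% for the male one. The basophils numbered 34 (female) and 19 (male). The median log2 fold change over all genes was 0.15. Proteases, Kit and Mitf were among the genes higher in mast cells, and 3 adhesion genes (Itgb1, Cd9 and Fn1) and the C5a receptor gene among those higher in basophils. Fn1 had 2 reads in mast cells and 1420 in basophils, 52.4% of them in 1 cell, and reached 10 CPM in 4 basophils. Its edgeR call (adjusted p = 0.0244) was lost with voom and in a fit of these subtypes alone.

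Of the 12 proteases, Tpsb2, Tpsab1, Cma1 and Mcpt4 were called higher in mast cells. Basophils held 1 read each of Tpsab1, Cma1 and Mcpt4 and none of Tpsb2, with edgeR adjusted p-values of 0.0107, 0.00960, 1.13e-05 and 0.000491 in that order for Tpsab1, Cma1, Mcpt4 and Tpsb2. The Tpsab1 call was lost without the female (0.0844) or male (0.0847) basophil library and the Cma1 call without the female one (0.0990); Tpsab1 was not called with DESeq2 (0.137). The basophil proteases ran the other way: Mcpt8 had 21.7 and 94.4 CPM in mast cells, from 3 cells, and 4775 and 10280 CPM in basophils (-7.24 ± 1.71, adjusted p = 0.0586, and 0.0300 with the animal as a block). Prss34 had 644 and 989 CPM in mast cells and 3589 and 8285 CPM in basophils and was not called (-3.09 ± 0.77, adjusted p = 0.0723). Cpa3, at 744 and 495 CPM in basophils, was not called either (5.09 ± 2.34, adjusted p = 0.285). The median log2 fold change of the 12 proteases was 12.78, or 10.61 with the genes without reads on 1 side set at their bounds.

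Of the 16 genes of the IgE receptor and Kit list, edgeR called 1 against basophils, Kit, DESeq2 called 2 higher and voom 2 higher and 3 lower. Hdc and the IgE receptor chains were not called by edgeR. The log2 fold change was -0.81 ± 1.15 for Hdc (adjusted p = 0.840), -1.62 ± 0.89 for Fcer1a (0.414), -1.49 ± 1.42 for Ms4a2 (0.716) and 0.20 ± 1.23 for Fcer1g, where edgeR gave an adjusted p of 1. Gata2, at -0.80 ± 1.43, and Il4, at -0.53 ± 2.16, were not called either. voom called Hdc, Fcer1a, Ms4a2 and Gata2 lower in mast cells (adjusted p = 3.50e-11, 0.00634, 0.000631 and 1.07e-13), and DESeq2 did not call any of these 4. With standard errors of this size, derived from edgeR's F statistics, differences of several-fold in either direction were not detectable.

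Kit had 1388 and 786 CPM in mast cells and 9 reads in all basophils (adjusted p = 0.0477), but was not called with the animal as a block (0.0588) or without any 1 of the 4 libraries (0.107 to 0.201). With no read in basophils, Mitf was higher in mast cells by at least 4236-fold (adjusted p = 0.0172); without the male mast cell library (0.0598) or either basophil library (0.127 and 0.147) it was not called. Hes1, a target of Notch signalling, had 903 and 938 CPM and 1 read in basophils (adjusted p = 0.0115), not called without the female (0.121) or male (0.104) basophil library. Rab27b had 742.5 and 448 CPM and 3 reads in basophils (adjusted p = 0.00679), not called without the female (0.0867) or male (0.0738) basophil library. Lyst, a regulator of granule size, ran the other way, at 32.96 and 19.3 CPM against 404.8 and 356.2 CPM (-4.06 ± 0.78, adjusted p = 0.00772), not called without the female (0.0568) or male (0.125) mast cell library.

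The mediator genes split. Tph1 had 2 reads in basophils (adjusted p = 0.0109) and Hpgds, which makes prostaglandin D2, had 589 and 465 CPM in mast cells and 3 reads in basophils (adjusted p = 0.0388, and 0.0505 with the animal as a block). The Tph1 call held without the male mast cell library and was lost without the female one (0.0695) or either basophil library (0.0893 and 0.0625), and the Hpgds call was lost without any 1 of the 4 (0.0810 to 0.237). Alox5, the enzyme that starts leukotriene synthesis, had 574.8 and 304.3 CPM in mast cells and 837.2 and 213.998 CPM in basophils and was not called. Ccl2 and Ccl7 had no read in basophils. Counted in reads, they were at least 35760-fold and 11623-fold higher in mast cells (edgeR adjusted p = 0.0271 and 0.00310). Ccl7 was called without each of the 4 libraries but not with DESeq2 (0.186) or voom (0.582). The Ccl2 call was lost without any 1 of the libraries (0.0568 to 0.193) and with voom (0.995).

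Genes of adhesion and of the oxidant response also differed in both directions. Itga4, an integrin chain, had 297.5 and 351.1 CPM in mast cells and 9.33 and 0 CPM in basophils (5.98 ± 1.32, adjusted p = 0.0194), and its call was lost without the male mast cell library (0.0625). Cd9, a tetraspanin, had 192.96 and 237.8 CPM in mast cells and 2159 and 2839 CPM in basophils (-3.75 ± 0.43, adjusted p = 4.50e-05) and was called without each library. Itgb1, the integrin beta 1 chain, had 133.9 and 111.8 CPM against 828 and 726 CPM (-2.86 ± 0.56, adjusted p = 0.00918), and was not called without the female (0.0784) or male (0.122) mast cell library. C5ar1, the C5a receptor, had 1 read in all mast cells and 652 and 558 CPM in basophils (adjusted p = 0.000312), and was called without each library. Il1b, the interleukin 1 beta gene, had 1 read in all mast cells and was lower than in basophils (adjusted p = 0.0444), but was not called with the animal as a block (0.0601), without either mast cell library (0.224 and 0.234) or without the female basophil library, where its direction turned (0.923), nor with voom (0.949).

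Prdx4, a peroxidase of the secretory pathway, had 105.9 and 194.8 CPM in mast cells and no read in basophils, at least 3070-fold higher (adjusted p = 0.000465). Mt1, a metallothionein, had 478.96 and 278.4 CPM and no read in basophils, at least 9603-fold higher (adjusted p = 0.000312), though not with voom (0.559). Hmox1, heme oxygenase, reached 10 CPM in 7 of the 59 mast cells, with 31.2 and 34.98 CPM in the summed libraries. It had no read in basophils, at least 745-fold lower when counted in reads (edgeR adjusted p = 0.0113). The 53 basophils without it allow a share of such cells of up to 5.66%, so by cells the difference may be much smaller. The Hmox1 call was lost without either basophil library. Prdx4 and Mt1 were called without each of the 4 libraries. Prdx6 and Cyba, a subunit of the NADPH oxidase, were lower in mast cells than in basophils (-2.75 ± 0.69, adjusted p = 0.0432, and -1.54 ± 0.38, adjusted p = 0.0429). The Prdx6 call was lost without any 1 of the 4 libraries (0.0767 to 0.278), and the Cyba call without the female (0.194) or male (0.192) mast cell library or the male basophil one (0.284). Cyba was also not called with voom (0.925), nor Hmox1 (0.984). In the sequencing run that held plates of both animals, the calls against basophils of Kit, Hpgds, Hes1, Lyst, Ccl2, Itga4, Itgb1 and Hmox1 were lost as well (0.0509 for Ccl2 to 0.219 for Lyst). Without a filter on low counts those of Prdx6 and Cyba were lost (0.0570 and 0.0584), and in a fit of these subtypes alone that of Cyba (0.0976).

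**Figure D4:**
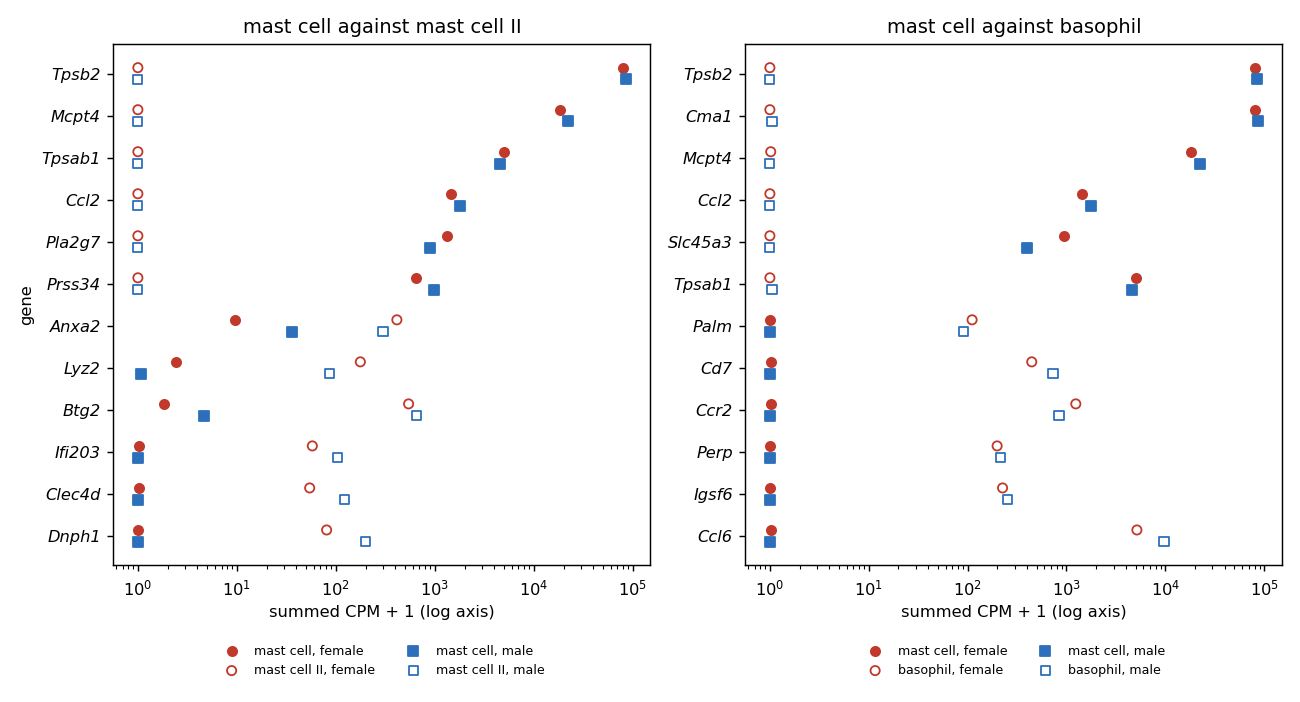
Summed CPM plus 1, on a log axis, of genes called between mast cells and mast cell II (left) and between mast cells and basophils (right), the 6 higher and 6 lower by rank on each side. Filled symbols are mast cells and open symbols the other subtype, circles for the female and squares for the male; in every row both filled symbols lie on the same side of both open ones.

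Mast cells varied among themselves. Of 1404 genes with a median of at least 200 CPM in the cells that reached 10 CPM, 18.7% did so in 30% to 70% of the cells of each animal. The highest medians among these were those of Ccl2, found in 30 cells (20 female, 10 male) with a median of 1543 CPM there, Fcer1a in 25 cells (958 CPM), Prss34 in 19 cells (619 CPM) and Tubb4b, a tubulin, in 21 female and 8 male cells (429.7 CPM). Ctsg, in 23 cells (366.1 CPM), was also among the first 10. With single cells and no molecular identifiers a gene without reads may have been missed, so such counts are limits on detection.

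Mcpt4, Prss34, Ccl2 and Ctsg were not spread alike over the cells. Of the 49 cells with at least 10 CPM of Mcpt4, 12 also had Prss34, 29 had Ccl2 and 23 had Ctsg. Of the 10 cells without Mcpt4 reads, 7 had Prss34, 1 had Ccl2 and none had Ctsg, which with 10 cells sets only a loose limit. Both animals showed the same order: Prss34 was found in 5 of 7 female and 2 of 3 male cells without Mcpt4, against 8 of 32 and 4 of 17 cells with it. Ccl2 was found in 1 of 7 and 0 of 3 cells without Mcpt4, against 19 of 32 and 10 of 17 with it. Tpsab1 was present in 9 of the 10 cells without Mcpt4 and in 47 of the 49 with it. These pairings were picked after the values were seen, and no test was run on them.

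**Figure D5:**
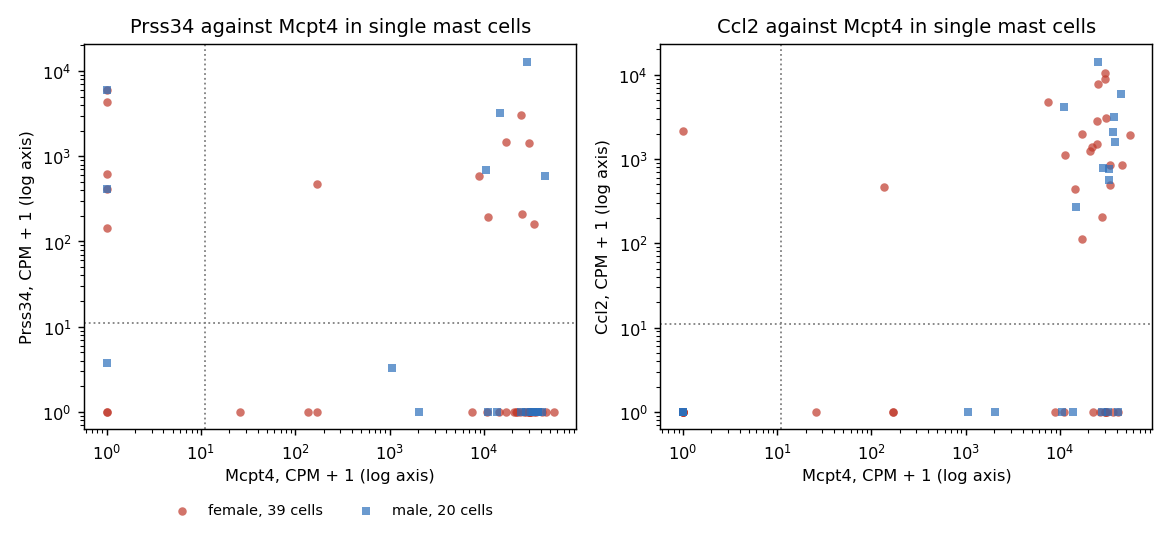
CPM plus 1 of Prss34 (left) and of Ccl2 (right) against that of Mcpt4, on log axes, in the 59 mast cells; each point is 1 cell, red circles for the female and blue squares for the male, and dotted lines mark 10 CPM. Of the 10 cells at the left edge without Mcpt4, 7 lie above the line for Prss34 and 1 for Ccl2.

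All 8 cells with Ccl7 were among the 30 with Ccl2. Il4 was present in 56 cells and Il13 in 31, of which 29 also had Il4. Across the 59 cells, Tpsb2 and Cma1 went together, with a Spearman correlation of 0.61 (0.59 in female and 0.62 in male cells). Kit ran against both, at -0.40 with Tpsb2 (-0.31 and -0.44 in female and male cells) and -0.44 with Cma1 (-0.43 and -0.45). Mcpt4 and Cma1 gave 0.10 over all cells, -0.06 in female and 0.33 in male cells. The 59 points share 2 animals and a few plates and differ in depth, and a gene that takes more of a cell's reads lowers the CPM of the others, so these values are descriptions.

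A minority of mast cells carried a proliferation signature. Among cells thinned to 100000 reads, 4 of 39 female mast cells (10.3%, exact Clopper-Pearson 95% interval 2.87% to 24.2%) and 5 of 20 male ones (25%, 8.66% to 49.1%) had at least 5 reads of at least 4 of 10 cell cycle genes. Mast cell II had 7 of 14 and 4 of 8 such cells, and basophils 0 of 53, which allows a share of up to 5.66%. Intervals and limits cover counting error only. Of the 9 cycling mast cells, 8 held at least 10000 CPM of Cma1 and 7 had Mcpt4, so granule genes and cell cycle genes were read in the same cells.

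All 10 cell cycle genes had a higher summed CPM in the male than in the female mast cells, among them Top2a, a topoisomerase of dividing cells (61.7 and 515 CPM), Mki67 (63.5 and 232.4 CPM) and Birc5 (33.5 and 217.5 CPM), though 0 passed the rule of size between the animals given next. Of the 10 cell cycle genes, edgeR called 3 against basophils, DESeq2 6 and voom 5, all higher in mast cells. Basophils did hold reads of others: Mki67 reached 10 CPM in 10 basophils and 13 mast cells. Tyms had 10184 reads in basophils, 77.9% of them in 1 cell, and 4173 in mast cells. The edgeR calls were Top2a, Birc5 and Cenpf, with 1 read of each in basophils (edgeR adjusted p = 0.00453, 0.00800 and 0.0163). These calls were lost without the female (0.0607, 0.104 and 0.148) or male (0.0843, 0.0726 and 0.0952) basophil library, and that of Cenpf also without the male mast cell library (0.0910) and in a fit of these subtypes alone (0.0608). Birc5 and Cenpf were not called in the sequencing run with plates of both animals (0.137 and 0.185).

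Between the animals no test was possible with 1 animal per sex, and a rule of size was used: a ratio of at least 4 for each female CD45 plate over each male one, or the reverse, with at least 50 CPM and at least 5 cells in the higher animal. Of 3601 genes that could pass, 78 (2.17%) were higher in the female and 26 (0.722%) in the male. Xist, transcribed from the inactive X chromosome, had 351.4 CPM in female mast cells and 0.0363 CPM in male ones, and Ddx3y, a gene of the Y chromosome, 0 and 62.4 CPM. Of the listed genes only 3 passed, all higher in the female: the chemokine Ccl4 (188.5 CPM from 8 cells, against 0.0363 CPM), the prostaglandin receptor Ptger3 (55.96 and 2.61 CPM) and the protease urokinase, Plau (102.3 and 9.25 CPM). Animal, sex and, for 1 female plate, sequencing run cannot be told apart here.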

How the data were processed

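Counts of reads per gene in each cell were deposited by the authors as 1 table of 18072 genes, 60 of them without reads; per the submitters' processing notes STAR 2.5.2b and HTSeq 0.10 were used, with GRCh38 named as the build although the cells are from mouse, so no coordinates were taken from the files. Each sample was 1 cell, and the animal was the replicate: counts were summed per subtype and animal where each animal had at least 5 cells, giving 30 libraries. Against the other subtypes, all libraries other than mast cells formed 1 group, so differences between subtypes were part of the spread. The common biological coefficient of variation was 1.77 there, and 1.15 against mast cell II and basophils, where each subtype had its own coefficient. Those were tested with edgeR 4.0.16 in R 4.3.3 (quasi-likelihood test, TMM scaling, low-count filter, adjusted p under 0.05), with limma 3.58.1 and DESeq2 1.42.0 as alternatives. The edgeR test gives no standard error. Each SE of a log2 fold change is its absolute value divided by the square root of the F statistic. Same-animal libraries pair by the labels, so the animal was also fitted as a block. Subtypes came from the labels. The cells and gene lists were chosen with earlier results of these data known. Named genes were the listed genes, the subtype markers, the 15 genes with the highest and 10 with the lowest ratio to the other subtypes, and the genes with the largest called changes, differences between animals and splits among cells. The fit was tested on simulated data with 100 genes changed 8-fold and 100 changed 64-fold in each comparison: it recovered 19% and 54% of them against the other subtypes, 3% and 19% against mast cell II, and 1% and 16% against basophils. Apart from the changed genes, the simulated subtypes shared the same mean for each gene. The shares recovered against the other subtypes therefore leave out the real differences between subtypes and may be too high. The summed libraries of the mast cells held 61799099 reads in the female and 27561347 in the male, and intervals for shares of cells are exact binomial ones.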

Additional observations from a re-analysis of the deposited data

How the results depend on the processing

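For the result "mast cell against other subtypes", 0.885% of the genes tested were called in either direction; DESeq2 called 8.14%, no filter on low counts 1.38%, limma voom 5.14%, a coefficient per subtype with the mean of logs 12.2%, leaving mast cell II and basophils out of the others 1.46%, and leaving out 1 mast cell library 0.391% to 0.538%. For mast cell against mast cell II, 0.788% were called; DESeq2 called 10.6%, voom 4.94%, a fit of these subtypes alone 5.41%, and leaving out 1 library 0.212% to 0.397%. For mast cell against basophil, 1.71% were called; DESeq2 called 15.97%, voom 9.74%, a fit of these subtypes alone 4.08%, and leaving out 1 library 0.647% to 1.16%. With the animal as a replicate block the shares were 0.955%, 1.04% and 1.71%. Without the 2 cells that stood apart, chosen after seeing the data, they were 0.923%, 0.968% and 1.82%. The cause of these shifts was not tested.

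For mast cells of the female against mast cells of the male, 2.89% of the genes that could pass met the rule of size; a 2-fold rule gave 10.6%, an 8-fold rule 0.750%, a minimum of 20 CPM 4.199%, the run with plates of both animals 4.92%, and the run without the 2 cells 3.23%. Of the genes split among mast cells, 18.7% passed at 10 CPM and 21.7% at 50 CPM. The mean over animals of the median genes detected, 2874.5, was 2625.25 with fewer reads kept per cell and 3921.75 without thinning. The protease share, 21.7%, was 21.01% in the run with plates of both animals and 20.9% as a mean of the cells' shares. Of the values for single genes under alternatives, 1005 (80.6%) kept direction and call, 19.3% lost the call and 1 reversed: for the result "Il1b, mast cell against basophil" the log2 fold change ran from -15.145 to 2.504 when 1 library was left out, the last without the female basophil library. The other kinds of result were less stable than the single genes. Under alternatives, 37.9% of the results for gene lists moved, and 50% of the results for whole comparisons did. With 1 animal per sex and 20 or 39 mast cells per animal, 2 libraries limit every test here.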
